A study of Mus musculus with 61 samples.

Results

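Levels of 10 genes of heart development, Nkx2-5, Gata4, Gata6, Hand1, Hand2, Tbx5, Isl1, Mef2c, Tnnt2 and Myl7, were followed in mouse stembryos, the aggregates of embryonic stem cells also called gastruloids. The genes were chosen by name, as known cardiac regulators and contractile genes. They are 10 of the 55052 genes of the expression table, which holds 61 poly-A RNA-seq libraries. The study followed the timing of Hox gene activation and asked what removing or adding CTCF binding sites (CBS) at the HoxD cluster does to it. Levels are in FPKM, fragment numbers scaled by transcript length and by library depth, so they can be set side by side between genes.

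All stembryos were grown from mouse embryonic stem (mES) cells in serum-free N2B27 medium and received a pulse of the Wnt agonist Chiron, and every library was made from a pool of stembryos. The wild-type (wt) line was EmbryoMax 129/SVEV. A wild-type time course held 2 libraries at each of 72, 84, 96, 108, 120, 132, 144 and 168 h after aggregation. Another 10 wild-type libraries stood apart from it, with 4 made at 96 h, 4 more at 120 h and the last 2 at 144 h. The other 35 libraries came from 8 mutant lines in 17 conditions, each with 2 libraries except Del(sub-TAD1) at 96 h, which had 3. Del(CBS1), Del(CBS2), Del(CBS1-2) and Del(d1-d4) were sampled at 96 h and 120 h and lack CTCF site 1, site 2, sites 1 and 2, or the segment from Hoxd1 to Hoxd4. Ins(2xCBS-d4d8), with 2 extra CTCF sites placed beside site 1, was sampled at the same stages. Del(sub-TAD1), which lacks the nearer part of the regulatory domain next to the cluster, was sampled at 96 h and 120 h. Del(CBS1-5), without sites 1 to 5, was sampled at these stages and also at 144 h. Del(CBS4), without site 4, was sampled at 120 h and 144 h. Cells of Del(sub-TAD1) and of Del(CBS1-5) came from blastocysts of mutant mice, whereas the other mutant lines were edited clones of the wild-type line. The mice used to derive cell lines were 10 weeks old and were kept under repeated backcrossing to BL6 x CBA F1 hybrids. The Del(CBS1-2) line was made on top of Del(CBS1), and the Del(sub-TAD1) mice also carried a fosmid transgene with the Mtx2 region. From 108 h on, only elongating stembryos without signs of apoptosis were collected, so later libraries describe selected stembryos.

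Positions are on the mouse genome build mm10, and each value covers all annotated transcripts of a gene. Nkx2-5 (chromosome 17, 26838664 to 26845009, minus strand) and Tbx5 (chromosome 5, 119832668 to 119885219, plus strand) are the members that stayed below 1 FPKM in every library. Gata4 lies on chromosome 14 (63198922 to 63271692, minus strand) and Gata6 on chromosome 18 (11052064 to 11085635, plus strand). Hand1 lies on chromosome 11 (57828705 to 57832818, minus strand) and Hand2 on chromosome 8 (57320983 to 57324633, plus strand). Isl1 (116298281 to 116309689, minus strand) and Mef2c (83504034 to 83667080, plus strand) are both on chromosome 13. Tnnt2 lies on chromosome 1 (135836354 to 135852260, plus strand) and Myl7 on chromosome 11 (5896637 to 5898782, minus strand). Gata6 overlaps the antisense gene 1010001N08Rik and Hand2 overlaps Hand2os1. The libraries were stranded, but Cufflinks was run with its default settings, in which the library type is unstranded, so reads of these antisense pairs may be mixed.

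The heart forms from anterior and lateral mesoderm, in which the zinc finger factors Gata4 and Gata6, the homeodomain factor Nkx2-5 and the T-box factor Tbx5 act together on cardiac genes. Progenitors of the second heart field carry the LIM-homeodomain factor Isl1 and the MADS-box factor Mef2c, and the basic helix-loop-helix factors Hand1 and Hand2 are needed in different parts of the heart and in neighbouring mesoderm. When cardiomyocytes differentiate, they switch on the contractile genes Myl7, a myosin light chain of atrial and early heart muscle, and Tnnt2, the cardiac troponin T of the thin filament. Most of these genes also work elsewhere in the embryo. Gata4 and Gata6 act in endoderm, Isl1 in motor neurons, Mef2c in endothelium and skeletal muscle, Hand1 and Hand2 in lateral and extraembryonic mesoderm, and Tnnt2 is also found in immature skeletal muscle. In these pooled stembryos, fewer cells of a type and less RNA per cell cannot be told apart.

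Of the members that rose together at 144 h (given below with their values), Hand2, Isl1, Tnnt2 and Myl7 had a RefSeq promoter entry, as did 6 of the 10 members. Their promoters are shown because these genes carried the main change of the time course. Each window has 300 bases, from 250 before to 50 after the RefSeq start on GRCm38.p6, and is written 5′ to 3′ on the strand of the gene. The windows are chr8:57320733-57321032 for Hand2 (plus strand), chr13:116309639-116309938 for Isl1 (minus strand), chr1:135836084-135836383 for Tnnt2 (plus strand) and chr11:5898733-5899032 for Myl7 (minus strand). Capitals mark GATAA, the core bound by GATA factors, AAGTG, the core bound by Nkx2-5, and the CArG box, the site of serum response factor, each searched on both strands.
Hand2: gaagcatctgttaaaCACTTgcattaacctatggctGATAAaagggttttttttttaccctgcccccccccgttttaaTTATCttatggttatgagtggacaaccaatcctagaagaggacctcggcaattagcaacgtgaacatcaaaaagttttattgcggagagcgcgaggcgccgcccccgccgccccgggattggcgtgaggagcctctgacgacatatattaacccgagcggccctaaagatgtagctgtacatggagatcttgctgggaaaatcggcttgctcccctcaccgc
Isl1: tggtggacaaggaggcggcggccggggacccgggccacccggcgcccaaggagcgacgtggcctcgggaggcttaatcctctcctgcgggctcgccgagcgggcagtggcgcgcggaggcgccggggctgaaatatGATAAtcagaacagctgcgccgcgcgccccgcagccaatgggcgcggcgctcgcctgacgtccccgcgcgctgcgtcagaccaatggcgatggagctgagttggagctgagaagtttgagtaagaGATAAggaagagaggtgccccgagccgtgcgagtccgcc
Tnnt2: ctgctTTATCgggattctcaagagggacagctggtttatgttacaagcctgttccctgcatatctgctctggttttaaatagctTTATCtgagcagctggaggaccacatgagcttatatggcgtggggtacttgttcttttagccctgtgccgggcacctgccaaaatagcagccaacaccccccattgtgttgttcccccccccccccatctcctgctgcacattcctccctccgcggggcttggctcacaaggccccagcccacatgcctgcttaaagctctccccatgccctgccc
Myl7: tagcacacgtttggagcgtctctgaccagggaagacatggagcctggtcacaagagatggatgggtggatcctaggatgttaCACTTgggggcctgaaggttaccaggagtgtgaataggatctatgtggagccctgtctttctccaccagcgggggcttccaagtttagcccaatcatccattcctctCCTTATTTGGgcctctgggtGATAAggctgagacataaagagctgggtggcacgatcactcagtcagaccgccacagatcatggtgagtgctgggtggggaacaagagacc

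All 4 windows held GATAA, which 25.4% of 32851 RefSeq promoters of this length hold by the same search. Hand2, Isl1 and Tnnt2 each held it at 2 places, and Myl7 held it once, with its first base at position -41 from the start. Tnnt2 has a second RefSeq start, with the window chr1:135836739-135837038, which held none of the searched motifs. Nkx2-5 and Mef2c, the other members with an entry, were searched too. Nkx2-5 held no GATAA, and Mef2c held it at its RefSeq start 2 but not at its starts 1 and 3. AAGTG, present in 46.4% of all promoters, was found on the reverse strand in Hand2 at -235 and in Myl7 at -168. The CArG box was found only in Myl7 among these 4, at -61 as CCTTATTTGG, and 1.63% of all promoters hold one. These matches describe letters in a window and not binding.

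Depth was inferred from the smallest steps between FPKM values and lay between 15.0 and 38.9 M fragments per library (median 24.0), with the time course between 15.0 and 24.0. The libraries fell into 2 sets by the mitochondrial transcript mt-Co3, with 28 libraries at 995 to 1718 FPKM and 33 libraries at 0.338 to 2.76 FPKM. The low set held the time course, wild-type replicate 4 at 96 h and 120 h, wild type at 144 h, Del(sub-TAD1) at 96 h, Del(CBS1-5) at 144 h and all libraries of Ins(2xCBS-d4d8) and Del(CBS4), and the origin of the sets was not tested. A level worth 3 fragments or fewer was treated as not distinguishable from 0, counting error only. By this limit, Nkx2-5 was not distinguishable from 0 in 55 of the 61 libraries and Hand2 in 38. The same held for Myl7 in 29 libraries, Hand1 in 26, Tbx5 and Tnnt2 in 11 each, Isl1 in 1, and Gata4, Gata6 and Mef2c in none. Of the 10 genes, 8 reached a mean of 1 FPKM in at least 1 of the 28 conditions and were tested with limma. Nkx2-5 and Tbx5 did not, and are described by their values.

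The first question was when each gene was on in the wild-type time course. The 8 tested genes passed the test in 19 of 56 gene-by-step tests (33.9%), 11 upward and 8 downward, against 10.2% for all genes over the same 7 steps. At 144 h, 6 of the 8 rose together, with Myl7, Tnnt2, Hand2, Gata4, Gata6 and Isl1 all higher than at 132 h. At 96 h and 120 h the levels of several members differed widely between the 2 libraries of the stage, so values are given library by library.

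**Figure D1:**
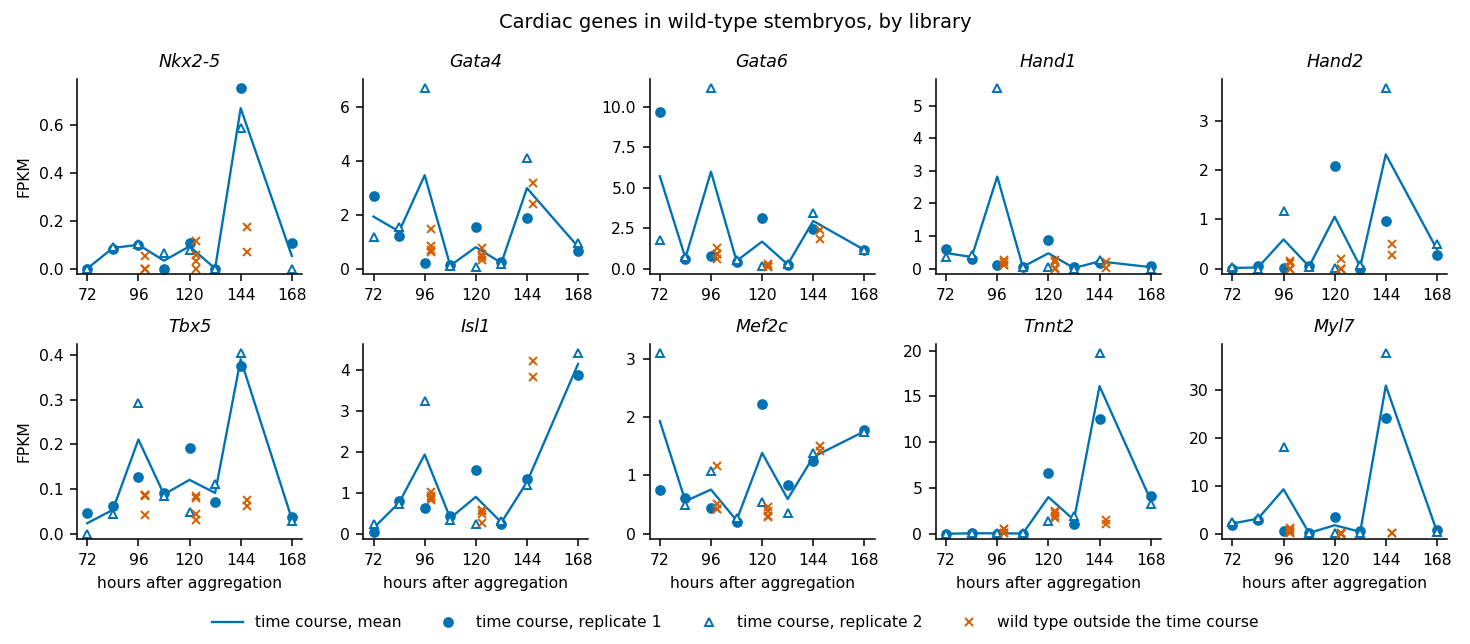
FPKM of the 10 genes (1 panel each, own vertical axis) against hours after aggregation, with points for the 2 time course libraries, lines through their means, and separate marks for wild-type libraries outside the time course. Myl7 and Tnnt2 peak at 144 h in the time course, and the high points of Gata4, Gata6, Hand1, Isl1 and Myl7 at 96 h belong to 1 library.

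Gata4 and Gata6, the GATA factors of cardiac mesoderm and endoderm, were already present at 72 h. Gata4 stood at 2.68 and 1.16 FPKM at 72 h (replicates 1 and 2) and at 1.21 and 1.53 at 84 h. It was 0.219 and 6.69 at 96 h, 0.116 and 0.0977 at 108 h, 1.52 and 0.0627 at 120 h, 0.250 and 0.170 at 132 h, 1.87 and 4.09 at 144 h, and 0.663 and 0.948 at 168 h. The 2 libraries were thus close at 84, 108, 132 and 168 h and far apart at 96 h and 120 h.

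Gata6, like Gata4, differed most between the 2 libraries at 96 h and 120 h, and it did so at 72 h as well. It stood at 9.66 and 1.78 FPKM at 72 h, 0.604 and 0.705 at 84 h, 0.802 and 11.2 at 96 h and 0.393 and 0.555 at 108 h. Later levels were 3.15 and 0.183 at 120 h, 0.230 and 0.281 at 132 h, 2.47 and 3.42 at 144 h, and 1.17 and 1.13 at 168 h. Its lowest mean was at 132 h, and the next stage did not overlap with it. Gata6 fell from 72 h to 84 h (log2 change -2.51, SE 0.75, adjusted p = 0.0177), where 16.3% of all genes were called. Without replicate 1 at 72 h the change was -1.32 and did not pass (adjusted p = 0.416). Replicate 1 at 72 h, the higher library, also had the higher Mesp1 (16.4 against 2.59 FPKM), the early mesoderm factor.

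Hand1, a factor of lateral and extraembryonic mesoderm, was highest at 96 h, but only in replicate 2. It was listed at 0.596 and 0.356 FPKM at 72 h, 0.301 and 0.407 at 84 h, 0.101 and 5.54 at 96 h and 0.0527 and 0.0547 at 108 h. At 120 h it was 0.884 and 0.0539, and from 132 h on it stayed at or below 0.267 in every time course library. Over the whole course Hand1 fell between 72 h and 168 h (log2 change -2.04, SE 0.83, adjusted p = 0.0401), where 48.2% of all genes were called, but not without replicate 1 at 72 h (-1.74, adjusted p = 0.188).

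Hand2 was near 0 at most early stages and stood out later. Its levels were 0 and 0.0257 FPKM at 72 h, 0.0435 and 0 at 84 h, 0.0201 and 1.16 at 96 h and 0.0450 and 0.0410 at 108 h. They were 2.09 and 0.0214 at 120 h, 0 and 0.0742 at 132 h, 0.971 and 3.68 at 144 h and 0.285 and 0.497 at 168 h. Both libraries at 144 h and at 168 h were thus above both libraries of 72, 84, 108 and 132 h. Hand2 was higher at 168 h than at 72 h (log2 change 2.10, SE 0.80, adjusted p = 0.0296), though not without replicate 1 at 72 h (1.93, adjusted p = 0.125).

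Nkx2-5 and Tbx5, which act with the GATA factors in the early heart, were weak throughout. Nkx2-5 was at 0.108 FPKM or lower in the 14 time course libraries outside 144 h, and at 0.756 and 0.586 at 144 h. Both libraries at 132 h were listed at 0, and the 144 h mean was at least 5.60-fold higher than the 3-fragment limit of that stage. Tbx5 was at 0.377 and 0.404 FPKM at 144 h, above every other time course library, of which the highest was 0.294 at 96 h (replicate 2). Both genes were therefore highest at the stage where Myl7 and Tnnt2 were highest, at levels under 1 FPKM.

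Isl1, the second heart field and motor neuron factor, was lowest at 72 h and highest at 168 h. It stood at 0.0400 and 0.239 FPKM at 72 h, 0.790 and 0.726 at 84 h, 0.636 and 3.23 at 96 h and 0.440 and 0.324 at 108 h. It was 1.56 and 0.239 at 120 h, 0.231 and 0.322 at 132 h, 1.33 and 1.19 at 144 h, and 3.88 and 4.41 at 168 h. Isl1 rose from 72 h to 84 h (log2 change 1.98, SE 0.49, adjusted p = 0.00385), from 132 h to 144 h (1.86, SE 0.49, adjusted p = 0.0188) and from 144 h to 168 h (1.64, SE 0.49, adjusted p = 0.0264). Without replicate 1 at 72 h the first of these rises was 1.34 and did not pass (adjusted p = 0.148). Between 72 h and 168 h Isl1 rose by 4.28 on the log2 scale (SE 0.49, adjusted p = 3.20e-09). The last rise came with the motor neuron and neuron list, of which 7 of 10 tested genes rose and none fell between 144 h and 168 h, where 9.87% of all genes were called. The summed level of the 14 genes of that list went from 40.6 and 32.2 FPKM to 177 and 184, and its part in the Isl1 values was not tested.

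Mef2c was present in every library, between 0.196 and 3.11 FPKM in the time course. Its highest level was in replicate 2 at 72 h, with 0.756 in replicate 1, and its lowest were 0.196 and 0.263 at 108 h. It stood at 2.23 and 0.544 at 120 h, 0.842 and 0.351 at 132 h, 1.24 and 1.39 at 144 h, and 1.77 and 1.74 at 168 h. Both libraries passed 1 FPKM only at 144 h and 168 h.

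Tnnt2, the troponin of the cardiac thin filament, was switched on between 108 h and 120 h. It was at 0.103 FPKM or lower in all 8 libraries from 72 h to 108 h, and listed at 0 in 4 of them. It then stood at 6.65 and 1.35 at 120 h, 1.04 and 1.99 at 132 h, 12.5 and 19.7 at 144 h, and 4.12 and 3.24 at 168 h. Tnnt2 rose by 4.68 on the log2 scale between 108 h and 120 h (SE 0.53, adjusted p = 2.60e-07), where 7.06% of all genes were called. Its level at 168 h was at least 24.4-fold higher than the 3-fragment limit at 72 h, where both libraries were listed at 0. No later library of the time course fell back to the levels seen up to 108 h.

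Myl7, the atrial myosin light chain, had a low early phase and a high late phase. It stood at 1.84 and 2.42 FPKM at 72 h, 2.97 and 3.31 at 84 h, 0.519 and 18.0 at 96 h and 0.207 and 0.107 at 108 h. It was 3.45 and 0.111 at 120 h, 0.645 and 0.130 at 132 h, 24.1 and 37.7 at 144 h, and 0.679 and 0.264 at 168 h. Both 144 h libraries were above every other library of the series, and both 168 h libraries were back below 1 FPKM.

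By a plain threshold of 1 FPKM in both libraries of a stage, Gata4, Gata6 and Myl7 first counted as on at 72 h, Tnnt2 at 120 h, and Isl1 and Mef2c at 144 h. Nkx2-5, Hand1, Hand2 and Tbx5 never met it. The stage with the highest mean was 72 h for Mef2c (1.93 FPKM) and 96 h for Gata6 (5.99), Gata4 (3.46) and Hand1 (2.82). It was 144 h for Myl7 (30.9), Tnnt2 (16.1), Hand2 (2.32), Nkx2-5 (0.671) and Tbx5 (0.391), and 168 h for Isl1 (4.14). The order among Gata6, Gata4 and Hand1 at 96 h was not larger than the spread between the 2 libraries there.

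At 144 h the members moved together. Of the 8 tested genes, 6 rose from 132 h and none fell, the median log2 change was 3.15 against 0.00 for all genes, and 5.42% of all genes were called. Myl7 rose by 6.19 on the log2 scale (SE 1.01, adjusted p = 1.51e-04), Hand2 by 3.93 (SE 0.80, adjusted p = 0.00265) and Tnnt2 by 3.36 (SE 0.53, adjusted p = 9.98e-05). Gata4 rose by 3.22 (SE 0.79, adjusted p = 0.0111), Gata6 by 3.08 (SE 0.75, adjusted p = 0.0111) and Isl1 by 1.86, as given above. The promoters printed above belong to 4 of these 6 genes. Fitted on these 4 libraries alone, Gata6 and Isl1 passed, whereas Myl7, Tnnt2, Gata4 and Hand2 had adjusted p between 0.0556 and 0.0868. Other lists rose in the same step. Of the endoderm list 7 of 14 tested genes rose, of the motor neuron and neuron list 3 of 10, of the endothelium and blood list 3 of 8 and of the smooth muscle list 3 of 5, and none fell. In the lateral plate list 3 of 10 rose and 1 fell. No gene rose in the neural crest, pluripotency or neuro-mesodermal and presomitic lists. The part of other cell types in the member values was not tested.

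The wider set of contractile and chamber genes showed the same stage. Of 22 such genes 14 could be tested, and 10 of them rose from 132 h to 144 h and none fell. Myh6 and Mybpc3 passed the filter on low values only through the 144 h libraries of the time course, so they had to be high there, and 8 of the other 12 rose. Myl4, the atrial essential light chain, went from 0.306 and 0.653 FPKM to 17.6 and 33.1, Myl2, the ventricular light chain, from 0 and 0.418 to 4.05 and 10.8, and Myh6, the alpha myosin heavy chain, from 0.0186 and 0 to 2.53 and 3.10. Myl3 was listed at 0 in both 132 h libraries and stood at 5.60 and 8.72 at 144 h. Tnni1, Atp2a2, Tpm1 and Cacna1c did not pass the test, and these include genes used in many cell types. Several of the 10, such as Actc1 and Tnnc1, are also used by embryonic skeletal muscle, of whose list 3 of 12 tested genes rose and 1 fell over the same step.

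The 8 contractile and chamber genes too low to test were split. Pln, the regulator of the calcium pump, was listed at 0 in both 132 h libraries and stood at 0.324 and 0.723 FPKM at 144 h, and Csrp3, a muscle LIM protein, went from 0 and 0 to 0.885 and 0.746. Nppa and Nppb, the natriuretic peptide genes of working chamber muscle, were listed at 0 in both 144 h libraries of the time course. The giant sarcomere protein gene Ttn stood at 0.0848 and 0.149 FPKM there. Set against these markers, the cardiac label was met at 144 h in the time course by the light chains Myl2, Myl3, Myl4 and Myl7, and by Tnnt2, which is also found in immature skeletal muscle. It was not met by Nppa, Nppb or Ttn. Myh6 is not counted, since it passed the filter on low values only through those libraries. Of the other troponins named above, Tnni1 did not pass the test and Tnnc1, like Tnnt2, is shared with skeletal muscle. Which cells of the pools carried these transcripts was not tested.

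By 168 h the contractile genes had gone their own way. Myl7 fell by 5.83 on the log2 scale from 144 h (SE 1.01, adjusted p = 1.07e-04) and Tnnt2 fell by 2.08 (SE 0.53, adjusted p = 0.00807), while Isl1 rose. Without replicate 2 throughout the time course, the fall of Tnnt2 was 1.58 on the log2 scale and did not pass (adjusted p = 0.239). In the contractile list 7 of 14 fell, or 5 of 12 without Myh6 and Mybpc3, and none rose, in a step where 9.87% of all genes were called. Myl3 was again listed at 0 in both libraries, Myl2 stood at 0.360 and 0, and Myl4 at 3.53 and 4.44. Actc1 (21.3 and 20.9 FPKM) and Tnnc1 (9.60 and 10.3 FPKM), shared with skeletal muscle, did not pass the test in this step.

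**Figure D2:**
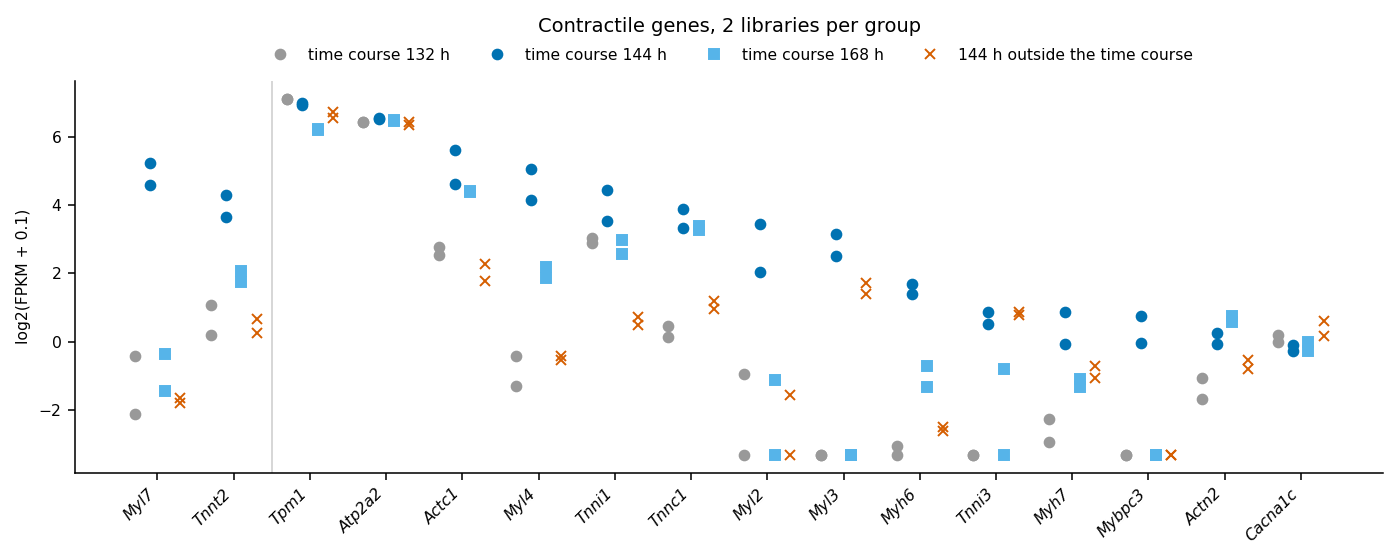
Level of Myl7, Tnnt2 and the 14 tested contractile and chamber genes, as log2(FPKM + 0.1), in each time course library at 132, 144 and 168 h and in the 2 wild-type libraries at 144 h outside the time course. Myl7, Tnnt2, Myl2, Myl4, Myh6 and Mybpc3 are highest in the 2 time course libraries at 144 h, while Atp2a2 lies at nearly the same level in all 8 libraries.

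Wild-type stembryos at 144 h outside the time course did not share that peak. Myl7 was at 0.184 and 0.217 FPKM in these 2 libraries, against 24.1 and 37.7 in the time course, a log2 difference of -6.65 (SE 1.01, adjusted p = 1.01e-05). Tnnt2 was at 1.48 and 1.09 FPKM, with a log2 difference of -3.53 (SE 0.53, adjusted p = 8.71e-06). In the contractile list 9 of 14 genes were lower, or 7 of 12 without Myh6 and Mybpc3, and none higher, and 21.5% of all genes were called. Myl4 stood at 0.651 and 0.584 FPKM there, Myl2 at 0.237 and 0, Myh6 at 0.0740 and 0.0636, and Actc1 at 3.33 and 4.72.

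The regulators differed less at that stage. Gata4 was at 3.18 and 2.38 FPKM outside the time course and Gata6 at 2.41 and 1.80, both overlapping or close to the time course levels, and neither passed the test. Hand2 stood at 0.497 and 0.273, below both time course libraries, also without passing. Hand1 (0.203 and 0.0267 FPKM) and Mef2c (1.41 and 1.51 FPKM) did not pass either. Nkx2-5 (0.173 and 0.0682) and Tbx5 (0.0762 and 0.0615) were below their time course levels at 144 h. Isl1 was higher outside the time course, at 3.83 and 4.22 FPKM (log2 difference 1.60, SE 0.49, adjusted p = 0.0168), and did not pass without either of the 2 libraries (adjusted p = 0.0728 and 0.09998). The motor neuron and neuron list was higher there too, with 6 of 10 genes up and sums of 86.9 and 65.9 FPKM against 40.6 and 32.2. Placed on the time course by their overall expression, these 2 libraries fell at 157 h with 1000 genes and at 126 h with 500, so their stage could not be set.

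At 96 h and 120 h, single libraries of the time course carried the high values. Replicate 2 at 96 h had 6.69 FPKM of Gata4, 11.2 of Gata6, 5.54 of Hand1, 3.23 of Isl1 and 18.0 of Myl7, while replicate 1 had 0.219, 0.802, 0.101, 0.636 and 0.519 of the same genes. Hand2 showed the same split (1.16 against 0.0201 FPKM). Tnnt2 did not, with 0.103 and 0 FPKM, so Myl7 was high in a library with almost no Tnnt2. This library also had a summed endoderm list of 838 FPKM against 221, and a lateral plate list of 58.7 against 22.2. The neuro-mesodermal and presomitic list went the other way, with a sum of 549 against 1132 FPKM, and Cdx4, a caudal factor of that list, stood at 0.953 against 46.8. Tbx1, a second heart field gene, was at 4.31 against 0.464 FPKM there. Other genes of the heart field list were less split, and Mesp2 was at about the same level in both libraries (values under Other observations).

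Tests across this stage follow that library. Between 84 h and 96 h only Gata6 passed (log2 change 2.08, SE 0.75, adjusted p = 0.0453), with 20.7% of all genes called, and without that library the change was 0.26 (adjusted p = 0.994). Between 96 h and 108 h, where 9.45% of all genes were called, 5 of 8 members passed and all fell. These were Myl7 (log2 change -3.73, adjusted p = 0.0142), Gata4 (-2.83, adjusted p = 0.0169), Hand1 (-2.79, adjusted p = 0.0265), Gata6 (-2.49, adjusted p = 0.0303) and Isl1 (-1.71, adjusted p = 0.0215). Without replicate 2 at 96 h none of the 5 passed, and the changes were -1.30, -0.63, -0.39, -0.67 and -0.62 in the same order. In that fit the single remaining library is assumed to vary like other groups.

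At 120 h it was replicate 1 that stood apart. Gata4 (1.52 against 0.0627 FPKM), Gata6 (3.15 against 0.183), Hand1 (0.884 against 0.0539), Hand2 (2.09 against 0.0214), Isl1 (1.56 against 0.239) and Myl7 (3.45 against 0.111) were all higher there than in replicate 2. Mef2c (2.23 against 0.544) and Tnnt2 (6.65 against 1.35) were higher as well, and so were the endothelial genes Kdr (13.3 against 0.577) and Cdh5 (9.06 against 0.404). The endothelium and blood list summed to 69.5 against 17.9 FPKM and the endoderm list to 320 against 88.0. The neuro-mesodermal and presomitic list was again lower in the high library, at 260 against 445 FPKM, with Cdx4 at 10.3 against 53.3. Mef2c rose from 108 h (log2 change 1.90, SE 0.50, adjusted p = 0.0152), but not without this library (0.98, adjusted p = 0.446). The rise of Tnnt2 held without it (3.58, adjusted p = 1.81e-04). From 120 h to 132 h none of the 8 members passed the limma test, in a step where 2.46% of all genes were called, although 3 of the 8, and 13.5% of all genes, had an unadjusted p under 0.05 and all 8 estimates were negative.

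**Figure D3:**
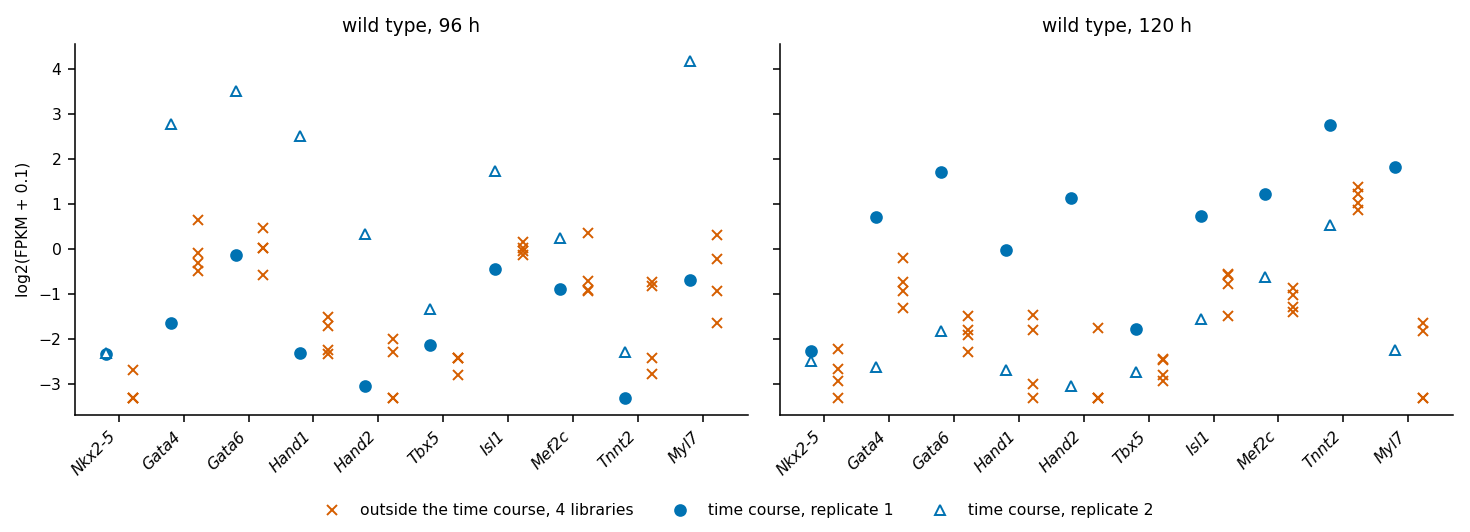
Level of the 10 members, as log2(FPKM + 0.1), in each wild-type library at 96 h and at 120 h, for the 2 time course libraries and the 4 libraries outside the time course. Time course replicate 2 lies above the other libraries at 96 h for Gata4, Gata6, Hand1, Hand2, Isl1 and Myl7, and time course replicate 1 lies above the others at 120 h for all 8 tested members.

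At each of these stages, 4 wild-type libraries from outside the time course showed where other pools of the same genotype lay. At 96 h Gata4 was at 0.841, 0.605, 0.702 and 1.47 FPKM, Gata6 at 1.29, 0.917, 0.571 and 0.909, and Myl7 at 1.13, 0.758, 0.424 and 0.217. At 120 h Gata4 was at 0.300, 0.497, 0.423 and 0.766, Gata6 at 0.164, 0.187, 0.255 and 0.103, and Myl7 at 0, 0, 0.182 and 0.220. None of these 8 libraries reached the high time course library of its stage for these 3 genes, and all values of Gata6 at 120 h lay below all values at 96 h.

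Tnnt2 was higher at 120 h than at 96 h in these pools too. It was at 0.0864, 0.0451, 0.467 and 0.501 FPKM at 96 h and at 1.94, 1.71, 2.24 and 2.50 at 120 h, with no overlap (log2 change 2.81, SE 0.38, adjusted p = 2.37e-07). In the same comparison, where 27.1% of all genes were called, Gata6 fell by 1.86 (SE 0.53, adjusted p = 0.00726) and Myl7 fell by 1.90 (SE 0.72, adjusted p = 0.0452) on the log2 scale. Without replicate 1 neither passed (Gata6 -1.69, adjusted p = 0.0579, Myl7 -1.33, adjusted p = 0.321), and without replicate 2 Myl7 did not (-1.50, adjusted p = 0.249). The changes of Gata4, Hand1, Hand2, Isl1 and Mef2c did not pass.

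Against the time course, the differences of the wild-type libraries at 96 h and 120 h rested on the single high libraries. At 96 h, where 32.3% of all genes were called, Gata6 (-1.69, adjusted p = 0.0445), Myl7 (-2.37, adjusted p = 0.0357) and Hand1 (-2.04, adjusted p = 0.0272) were lower on the log2 scale outside the time course. Without time course replicate 2 at 96 h the differences were 0.13, 0.06 and 0.37. At 120 h, where 30.1% were called, Mef2c (-1.43, adjusted p = 0.0112), Gata6 (-1.82, adjusted p = 0.0319), Hand2 (-1.98, adjusted p = 0.0292) and Myl7 (-2.32, adjusted p = 0.0423) were lower. Without time course replicate 1 at 120 h these became -0.51, -0.06, 0.11 and -0.29, and none passed. The calls were also lost without some of the wild-type libraries, with adjusted p between 0.0505 and 0.112. At 96 h these were wild-type replicates 1, 2 or 3 for Gata6, 3 or 4 for Myl7 and 2 for Hand1, and at 120 h replicates 1, 2 or 4 for Gata6, 1 or 2 for Myl7 and 1, 2 or 3 for Hand2. Over the 3 shared stages, 10 of 24 tests passed (41.7%), 9 of them lower outside the time course.

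The mutants were compared with the wild-type libraries of their stage outside the time course, so mutants of a stage share their controls. Of 136 tests, 8 members in 17 conditions, 6 passed (4.41%), against 12.1% for all genes, and 27 had an unadjusted p under 0.05, which 24.0% of the tests of all genes had. Of the 6, 5 were in Tnnt2 and 1 in Mef2c. Gata4, Gata6, Hand1, Hand2, Isl1 and Myl7 did not pass the limma test in any mutant, and 15 of their 102 tests had an unadjusted p under 0.05.

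**Figure D4:**
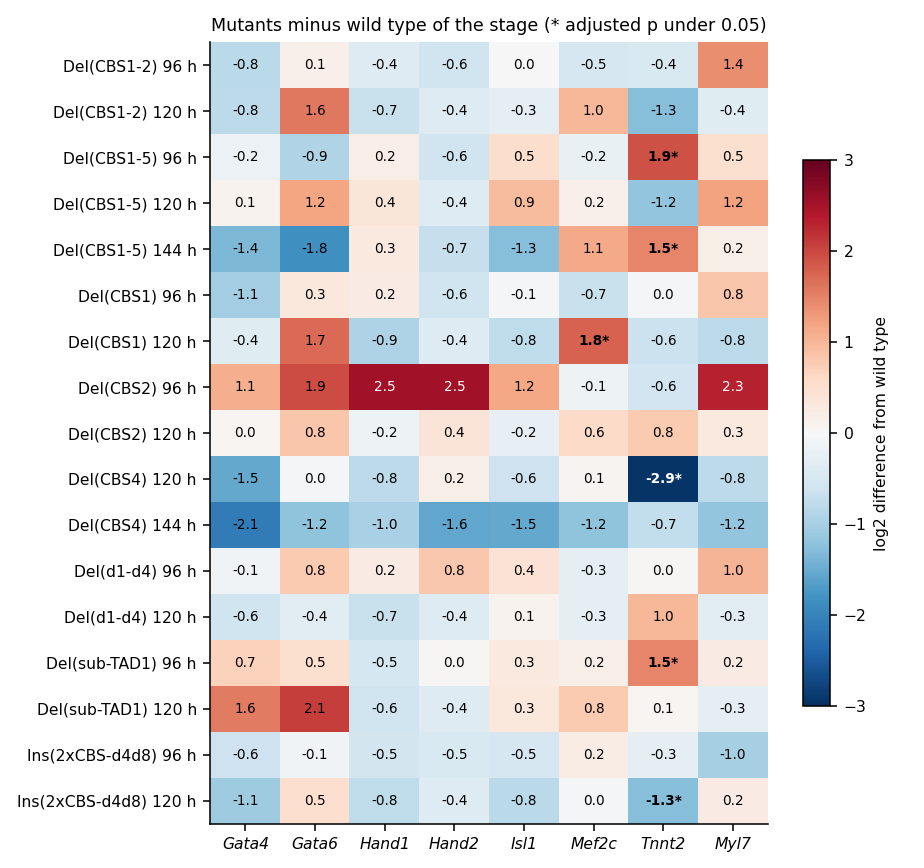
Log2 difference from wild type of the same stage for the 8 tested members (columns) in the 17 mutant conditions (rows), with blue for lower, red for higher and an asterisk for adjusted p under 0.05. The asterisks lie in the Tnnt2 column in 5 conditions and in the Mef2c column for Del(CBS1) at 120 h; the Del(CBS2) 96 h row is red for 6 members without an asterisk.

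Tnnt2 was higher than wild type in 2 mutants at 96 h. These were the 2 lines made from blastocysts. In them, at this or any other stage, the mutation cannot be told apart from line origin and mouse background. In Del(CBS1-5) it stood at 1.22 and 0.935 FPKM, above all 4 wild-type libraries (log2 difference 1.91, SE 0.46, adjusted p = 0.00407, 14.8% of all genes called). In Del(sub-TAD1) it stood at 1.06, 0.597 and 0.686 FPKM, again above all 4 (1.47, SE 0.41, adjusted p = 0.00430, 40.0% of all genes called). With the controls of the same library set the difference was 2.23 (adjusted p = 0.0451) in Del(CBS1-5) and 1.90 (adjusted p = 0.0523) in Del(sub-TAD1). For Del(sub-TAD1) these controls were wild-type replicate 4 (0.501 FPKM) and the 2 time course libraries of 96 h (0 and 0.103 FPKM). The pluripotency list had sums of 223 and 230 FPKM in Del(CBS1-5) and 68.4, 184 and 205 in Del(sub-TAD1) against 32.0, 33.6, 111 and 41.7 in wild type, and its part in the Tnnt2 values was not tested. Replicate 1 of Del(sub-TAD1) had the highest Tnnt2 of its 3 libraries and the lowest of their sums. In Del(CBS1-5) at 120 h the sums were also above wild type, at 138 and 157 against 10.3, 9.54, 88.2 and 22.1 FPKM, while Tnnt2 lay below every wild-type library. The other 5 lines sampled at 96 h had Tnnt2 between 0.0970 and 0.259 FPKM, inside the wild-type range.

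At 120 h Tnnt2 was lower than wild type in 2 mutants. Del(CBS4) had 0.225 and 0.144 FPKM, below every wild-type library of that stage (log2 difference -2.95, SE 0.46, adjusted p = 1.37e-05, 37.5% of all genes called). Ins(2xCBS-d4d8) had 1.35 and 0.453, also below all 4 (-1.28, SE 0.46, adjusted p = 0.0355, 26.9% of all genes called). Its 2 libraries lay far apart, and it did not pass without wild-type replicate 3 (-1.25, adjusted p = 0.0599). With the controls of the same library set the difference was -3.38 in Del(CBS4) (adjusted p = 0.00194) and -1.72 in Ins(2xCBS-d4d8) (adjusted p = 0.188). For both lines these controls were wild-type replicate 4 (2.50 FPKM) and the 2 time course libraries of 120 h (6.65 and 1.35 FPKM). In Del(CBS4) at 120 h, 5 of 12 genes of the skeletal muscle and somite list (41.7%) and 3 of 14 of the contractile list (21.4%) were lower and none higher, against the 37.5% of all genes called there.

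The remaining lines at 120 h spread around the wild-type range of 1.71 to 2.50 FPKM. Tnnt2 stood at 4.23 and 3.15 in Del(CBS2), 4.47 and 3.98 in Del(d1-d4) and 2.07 and 2.28 in Del(sub-TAD1). It stood at 1.23 and 1.38 in Del(CBS1), 0.878 and 0.726 in Del(CBS1-2) and 0.896 and 0.823 in Del(CBS1-5). None of these 6 passed.

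At 144 h Tnnt2 in Del(CBS1-5) depended on which wild type it was set against. It stood at 4.61 and 2.93 FPKM, above the 2 wild-type libraries outside the time course (1.48 and 1.09), with a log2 difference of 1.46 (SE 0.53, adjusted p = 0.0419, 23.7% of all genes called). With the 2 time course libraries of 144 h (12.5 and 19.7) added as controls the difference was -0.30 (adjusted p = 0.829). It also did not pass without either wild-type library (1.66, adjusted p = 0.0816, and 1.26, adjusted p = 0.180). In these mutant libraries the skeletal muscle and somite list had 8 of 12 genes up and 1 down, with sums of 411 and 409 FPKM against 166 and 166, and the pluripotency list summed to 266 and 264 against 4.06 and 6.24. Myl7 stood at 0.251 and 0.230 FPKM there, about the level of those wild-type libraries. Mef2c (3.36 and 3.32 FPKM) had the 2 highest Mef2c values of the series in these libraries, without passing the test (log2 difference 1.14, adjusted p = 0.101). Del(CBS4) at 144 h had Tnnt2 at 0.648 and 0.814 FPKM and did not pass.

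**Figure D5:**
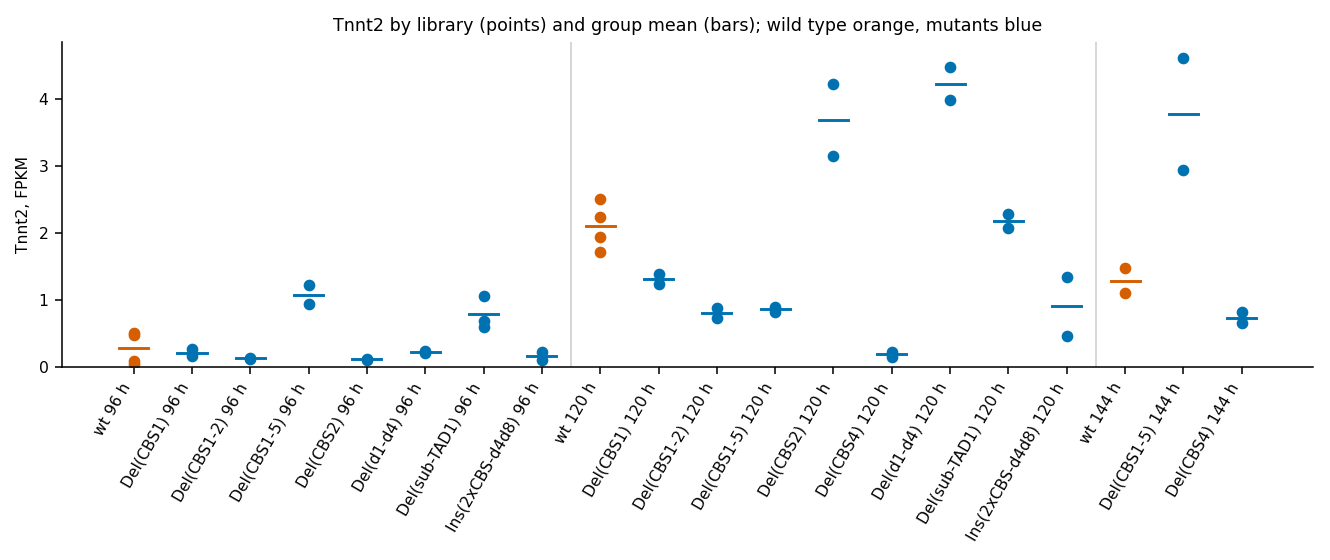
Tnnt2 FPKM in each library outside the time course, grouped by genotype and stage, with 1 point per library and bars at the group means. Del(CBS4) at 120 h lies below all 4 wild-type libraries of its stage, Del(CBS1-5) and Del(sub-TAD1) at 96 h lie above all 4 of theirs, and Del(CBS2) and Del(d1-d4) reach 3.15 to 4.47 at 120 h.

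Each Tnnt2 difference rested on few libraries. Without replicate 1, or without replicate 2, of every mutant condition, which leaves 1 library (2 in Del(sub-TAD1) at 96 h), the Tnnt2 differences kept their direction in all 5 conditions. Of the 5 only Del(CBS4) at 120 h still passed, and only with replicate 2 (-3.15, adjusted p = 0.0190), not with replicate 1 (-2.74, adjusted p = 0.0794). In these fits the lone library is assumed to vary like other groups.

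The effect of Del(CBS1-5) on Tnnt2 differed between stages. The log2 difference was larger at 96 h than at 120 h by 3.10 (SE 0.65, adjusted p = 0.0233), a contrast in which 0.257% of all genes were called. At 120 h minus 144 h the contrast was -2.64 (SE 0.70, adjusted p = 0.0165, 7.07% of all genes called). For Del(CBS4) the difference between 120 h and 144 h was -2.22 (SE 0.70, adjusted p = 0.0457, 8.27% of all genes called). Isl1 in Del(CBS1-5) also differed between 120 h and 144 h (2.23, SE 0.65, adjusted p = 0.0300). Outside the time course, it stood at 1.01 and 0.926 FPKM at 120 h, above the wild-type range of 0.258 to 0.580, and at 1.44 and 1.78 at 144 h, below the wild-type 3.83 and 4.22. The wild-type time course had Isl1 at 1.56 and 0.239 FPKM at 120 h, on both sides of the mutant. At 144 h it had 1.33 and 1.19, below the mutant, so the direction at 144 h depended on the wild type used. Over the 9 such contrasts 4 of 72 member tests passed (5.56%), against 4.43% for all genes, and with controls of the same library set none of the 4 passed (adjusted p 0.341 and 0.711 for Tnnt2 in Del(CBS1-5), 0.757 for Tnnt2 in Del(CBS4) and 0.192 for Isl1). Leaving out replicate 1 or replicate 2 of all mutant conditions also ended all 4 calls, leaving out wild-type replicate 1 or 2 ended all except Tnnt2 in Del(CBS1-5) between 120 h and 144 h, and leaving out wild-type replicate 3 ended that of Del(CBS4) (adjusted p = 0.0572), as did leaving out replicate 3 of Del(sub-TAD1) at 96 h (adjusted p = 0.0506), which enters it only through the shared estimate of spread.

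Mef2c passed in Del(CBS1) at 120 h only. It stood at 1.16 and 1.78 FPKM, above all 4 wild-type libraries (0.394, 0.451, 0.310 and 0.279), with a log2 difference of 1.76 (SE 0.43, adjusted p = 0.0209), in a comparison where 2.10% of all genes were called. It did not pass without wild-type replicate 4 (1.68, adjusted p = 0.0504) or with controls and mutants of its own library set alone (1.68, adjusted p = 0.106). The endothelium and blood list was high in the same 2 libraries, at 23.0 and 28.2 FPKM against 9.44, 7.82, 20.1 and 9.45, and its part in the Mef2c values was not tested. Del(CBS1-2), made from this line, had Mef2c at 1.07 and 0.602 FPKM, without passing. The wild-type time course at 120 h had Mef2c at 2.23 FPKM in replicate 1, above both Del(CBS1) libraries. Replicate 2 had 0.544, below both.

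Del(CBS2) at 96 h stood apart in several regulators without any call. Both of its libraries were above all 4 wild-type libraries outside the time course for 6 of the 8 tested members, whereas 6.76% of all genes showed that order. Gata6 was at 3.88 and 3.56 FPKM (wild type at most 1.29), Gata4 at 2.10 and 1.80 (at most 1.47) and Isl1 at 2.25 and 2.05 (at most 1.01). Hand1 was at 1.63 and 1.18 (at most 0.252), Hand2 at 0.931 and 0.631 (at most 0.149) and Myl7 at 2.91 and 3.30 (at most 1.13). For Gata6, Hand1, Hand2, Isl1 and Myl7 the highest value of any mutant library was in this condition. Time course replicate 2 at 96 h, also wild type, lay above both Del(CBS2) libraries for all 6 genes. It had Gata6 at 11.2 FPKM, Gata4 at 6.69, Isl1 at 3.23, Hand1 at 5.54, Hand2 at 1.16 and Myl7 at 18.0. Time course replicate 1 at 96 h lay below both Del(CBS2) libraries for all 6.

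None of the 6 passed the limma test in Del(CBS2), where 0.298% of all genes were called. Log2 differences were 1.95 for Gata6 (adjusted p = 0.157), 2.31 for Myl7 (0.216), 2.52 for Hand1 (0.103), 2.53 for Hand2 (0.0933), 1.17 for Isl1 (0.195) and 1.10 for Gata4 (0.445), each an adjusted p. An unadjusted p under 0.05 was found for 5 of the 8 and for 15.0% of all genes. The lateral plate list was higher in the same libraries, at 34.8 and 31.3 FPKM against 23.5, 20.9, 14.4 and 27.9, and the endoderm list at 316 and 324 against 264, 207, 237 and 243. Mef2c (0.445 and 0.591) and Tnnt2 (0.110 and 0.103) lay inside the wild-type range.

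Among themselves, the members fell into looser and tighter pairs over the 28 conditions, as a description by Pearson correlation of condition means of log2(FPKM + 0.1). The highest pairs were Hand1 with Myl7 (r = 0.76), Gata4 with Gata6 (0.76), Hand2 with Tbx5 (0.70), Tbx5 with Myl7 (0.69) and Nkx2-5 with Hand2 (0.68). The lowest was Hand1 with Tnnt2 (-0.39). Several of these conditions have the same stage or genotype, and depth differs among them.

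The genes most like each member by this measure depended on the measure itself. By Spearman correlation over the same 28 conditions, 0 to 2 of the 3 genes named for a member stayed among its 3 nearest. By Pearson correlation over the 8 time course stages alone, none of the 3 stayed for 9 of the 10 members. By the first measure, for Myl7 they were Myl2 (r = 0.83), Wnt2 (0.82) and Il17d (0.78), and for Nkx2-5 they were Hspb7 (0.85), Mybpc3 (0.84) and Myl4 (0.72). For Tbx5 they were Myl4 (0.70), Ifnar2 (0.69) and Hspb7 (0.68), and for Hand2 they were Tcf21 (0.87), Myl4 (0.71) and Rasl11a (0.69). Mybpc3 passed the filter on low values only through the 144 h time course libraries, where Nkx2-5 was highest. Nkx2-5 was not distinguishable from 0 in 55 libraries, so its likeness to Mybpc3 follows from that stage and is no separate finding. By Spearman correlation 0 of the 3 genes stayed for Nkx2-5.

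The 3 nearest genes of the other members, by the same measure, held none of the contractile list. Tnnt2 was closest to Tk1 (0.86), Mapt (0.85) and Enox1 (0.84), and Isl1 to Id4 (0.85), Wscd2 (0.82) and Grasp (0.82). Mef2c was closest to Vav3 (0.83), Bcl6b (0.82) and Grb14 (0.82), Gata4 to Gstt3 (0.81), Lyn (0.78) and Capn1 (0.77), Gata6 to Slc39a8 (0.86) and AI661453 (0.79), and Hand1 to Fgf10 (0.77), Gramd2 (0.75) and Mfsd10 (0.75). Mapt encodes the neuronal protein tau and Bcl6b is found in endothelium.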

How the data were processed

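Poly-A RNA-seq of pooled stembryos was deposited as 1 table of FPKM values for 61 libraries. Per the submitters' processing notes and the study's methods, the authors trimmed reads with cutadapt (1.16), aligned them to mm10 with STAR (2.7.7a), kept uniquely mapped reads, and computed the deposited FPKM per gene with Cufflinks (2.2.1). The table holds no counts.

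The rows of the 10 members were taken by symbol. Members, gene lists and tests were chosen with earlier results of these data known. Groups followed the sample labels, and every column was matched to 1 sample.

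Log2(FPKM + 0.1) was fitted with limma (3.58.1, R 4.3.3) over all 61 libraries with 1 coefficient for each of 28 conditions, for the 17098 genes with a mean of at least 1 FPKM in some condition. Tests were two-sided with Benjamini-Hochberg adjustment over these genes in each comparison, and calls needed an adjusted p under 0.05. Fold changes on this scale understate changes of low genes. With 2 to 4 pools per group, p-values measure the spread between pooled libraries, which may be technical.

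Depth was inferred from the FPKM steps that 1 fragment makes at transcripts of at least 1000 bases. Of low values, 75.7 to 80.2% in the libraries with high mt-Co3 and 97.1 to 98.2% in the others were whole fragment numbers, within 0.02. The resulting limit of 3 fragments covers counting error only.

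Named were the 10 members in every comparison, for each member the 3 named genes of highest Pearson correlation over 28 conditions, list genes standing beside a member, and up to 4 list genes with the largest called changes per comparison. Other genes were named after their values were seen, and some genes that these rules would name are not reported here. Library ages were placed on the time course by the 1000 genes that varied most along it. Alternatives were other pseudocounts, no filter, upper-quartile scaling, a variance trend with robust fitting, a replicate block, fits on the compared groups alone, controls of the same library set and leaving out libraries. For mutants of the low mt-Co3 set, the same-set controls included the time course libraries of the stage. The fit was tested on simulated data.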

Additional observations from a re-analysis of the deposited data

Results flagged for a closer look

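Within groups of 4 wild-type libraries, 4 of 20 gene and stage combinations had a highest or lowest library with a gap that took up most of the range. The rule expects about 1 in 20 groups for normally spread values. That rate does not apply to levels floored at 0, where 3 libraries at 0 force a ratio of 1.00, as in Nkx2-5 and Hand2. The share over all genes was not determined, so the count is not read as an excess. Nkx2-5 at 96 h was listed at 0 in 3 libraries and at 0.0536 FPKM in replicate 3, so the gap was the whole range (ratio 1.00). That value is under the limit of 3 fragments in its library and so not distinguishable from 0. Hand2 at 120 h was listed at 0 in 3 libraries and at 0.194 FPKM in replicate 4 (ratio 1.00). Tbx5 at 96 h was lowest in replicate 1, at 0.0427 FPKM against 0.0848 to 0.0871 (ratio of gap to range 0.948). Mef2c at 96 h was highest in replicate 2, at 1.17 FPKM against 0.420 to 0.514 (ratio 0.874). In the same library the endothelium and blood list summed to 43.2 FPKM, against 40.9, 65.9 and 53.3 in the other 3.

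A mutant effect differed between stages, by an interaction contrast in limma, in 4 cases. For Tnnt2 in Del(CBS1-5) the log2 effect was larger at 96 h than at 120 h by 3.10 (adjusted p = 0.0233), and the effect at 120 h less that at 144 h came to -2.64 (adjusted p = 0.0165). For Isl1 in Del(CBS1-5) the effect at 120 h minus 144 h was 2.23 (adjusted p = 0.0300), and for Tnnt2 in Del(CBS4) it was -2.22 (adjusted p = 0.0457). The 144 h controls are the 2 libraries without the contractile peak of the time course.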

How the results depend on the processing

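Of 46 member calls, 9 held under every alternative run, and 12 under those that left out no library. The 9 were Gata6 and Isl1 from 132 h to 144 h, Myl7 and Isl1 from 144 h to 168 h, Tnnt2 and Isl1 from 72 h to 168 h, Tnnt2 from 96 h to 120 h outside the time course, and Myl7 and Tnnt2 at 144 h against the time course. Fitted on the compared groups alone, calls were 6 of 38 testable over the 7 steps (19 of 56 in the full fit), 3 for wild type against the time course (10) and 1 for wild type between 96 h and 120 h (3). That wild-type count was also 1 with a pseudocount of 1 or 0.5 FPKM. Without a filter 2 calls remained from 72 h to 168 h (4). The 17 mutant comparisons gave 10 calls with a pseudocount of 0.5 FPKM (6), and 6 with controls of the same library set, 2 of them shared. Stage contrasts of the mutants gave 2 calls with a pseudocount of 1 FPKM (4) and 0 with controls of the same set, where limma tested 72. With that set Tnnt2 in Del(CBS1-5) at 144 h was -0.30.

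Leaving out libraries gave 14 to 25 calls over the steps, 2 to 6 from 72 h to 168 h, 1 to 3 for wild type between stages, 5 to 13 against the time course, 0 to 6 in mutants and 0 to 5 in stage contrasts. The single time course libraries at 72 h, 96 h and 120 h were left out after the data were seen. Differences from the time course then ranged from -3.51 to 0.13 for Gata6, -4.81 to 0.0643 for Myl7 and -4.44 to 0.37 for Hand1 at 96 h, and -4.06 to 0.11 for Hand2 at 120 h. Replicate numbers did not pair libraries, since the correlation of same-numbered deviations passed 0.1 in 1 of 28 time course pairs and 1 of 190 others. A replicate block gave 6 calls against the time course, 4 in mutants, 2 for wild type between stages and otherwise the counts of the full fit. The onset stage moved in 25 of 50 alternatives, so it is a loose order. Depth is inferred, and Nkx2-5 and Tbx5 stay near the limit of 3 fragments in most libraries.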

Other observations

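A list of 30 other genes of cardiac mesoderm and the heart fields, of which 24 could be tested, holds none of the members. Between 84 h and 96 h, 13 of the 24 rose and 1 fell (58.3%), with 20.7% of all genes called, and the median log2 change was 0.90. Mesp2, a paralog of Mesp1 used in somite formation, went from 0.214 and 0.514 FPKM to 19.9 and 22.2, and Tbx18 from 0.0631 and 0.0738 to 1.88 and 3.24. Myocd, a coactivator of serum response factor, went from 0.0197 and 0.0908 to 0.711 and 1.59. These genes rose in both libraries, including replicate 1, which was low in Gata4, Gata6, Hand1 and Myl7. Mesp2 and Tbx18 also act in somites, and Zfpm2, a cofactor of Gata4, fell (log2 change -1.08).

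From 132 h to 144 h, 3 of the 24 rose and 1 fell (16.7%), with 5.42% of all genes called, and the median log2 change was 0.04. Wnt2, a signal of the posterior heart field, went from 0.0520 and 0 FPKM at 132 h to 0.655 and 1.94, and was listed at 0 in both libraries at 168 h. Bmp2 and the pacemaker channel gene Hcn4 rose.

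Outside the time course at 144 h, 9 of the 24 were lower than in the time course and none higher (37.5%), with 21.5% of all genes called. Wnt2 was at 0.0376 and 0 FPKM there, and Mesp1 at 0.0708 and 0.0418 against 1.03 and 0.539.

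The smooth muscle list summed to 33.0 and 41.6 FPKM at 144 h in the time course and to 14.7 and 15.2 outside it. Of its 5 tested genes 3 were lower outside it and none higher, with 21.5% of all genes called. Acta2 stood at 13.2 and 19.9 FPKM in the time course against 1.45 and 1.91. Myh11 went the other way (0.00906 and 0.0106 against 0.0325 and 0.0509), and Tagln was listed at 0 in these libraries.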
